A study of Rattus norvegicus with 24 samples.

Results

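Antigen presentation and interferon response genes were followed across rat brain RNA, as the probe sets that name 1 of 31 listed genes or any gene whose symbol begins with RT1-, the prefix of the rat major histocompatibility complex (MHC). In the array annotation, 69 of 31099 probe sets met this rule. They stand for 48 of the 14218 genes with a probe set of their own. No probe set was annotated to Ddx58 alone, and 6 probe sets with several RT1 symbols were left out by the rule. Of the 69 probe sets, 60 (46 genes) reached the 20th percentile of an array on at least 3 arrays and were tested among 27032. The 9 others were those of Cxcl10 and Nlrc5, 3 of RT1-CE5 and 1 each of RT1-A3, RT1-Bb, RT1-Db1 and Tap1, and their signals stayed between 2.56 and 5.96 on the log2 scale.

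MHC class I molecules, which carry the light chain B2m, show peptides from inside a cell. The peptides are cut by the immunoproteasome (Psmb8, Psmb9, Psmb10) with its activator (Psme1, Psme2), are pumped by Tap1 and Tap2 and are loaded with the help of Tapbp. MHC class II molecules (RT1-B, RT1-D) show peptides taken up from outside, are held ready by the invariant chain Cd74, and depend on the transactivator Ciita. In brain, class II is found mainly on macrophages at the borders and on activated microglia, whereas interferons can raise class I and the antiviral effectors in most cells, through Stat2, Irf9 and the other interferon regulatory factors.

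RNA of tissue labelled midbrain was hybridized to 24 Affymetrix rat expression arrays. The female rats were intact and in proestrus (12 arrays), ovariectomized (OVX, 6 arrays), or ovariectomized and adrenalectomized (OVX/ADX, 6 arrays), and per the study's methods both operated groups had been primed with estradiol benzoate. A rat either took part in paced mating, in which the female can leave the male through a hole in a partition, or was exposed to the clean chamber only. The intact arrays come as 6 titled with numbers and 6 titled Intact-1 to Intact-6. Each set of 6 arrays holds 3 of either mating label. Of the OVX/ADX arrays, 2541 and 2530 carry numbers of the series that titles intact arrays, so results of that set are given with and without them. The study describes fewer intact rats than there are intact arrays, and fewer microarrays in all than the 24 here. It also states that an OVX/ADX rat died before its surgery was complete. It is therefore not known that the sets, or all arrays within a set, are of separate rats. The p-values measure only the spread between these arrays.

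Judged by the lowest signal of each array, the log2 signals were taken as normalized in 3 separate runs. These were the number-titled intact set, the Intact-titled set together with OVX, and the OVX/ADX set. No level was tested across runs. The label midbrain was not borne out alike by all of them. Th, which makes the precursor of dopamine, had a median percentile of 94.6 on the number-titled intact arrays and of 92.3 on the OVX/ADX arrays, against 33.5 on the Intact-titled and 36.9 on the OVX arrays, where markers of cortex and hippocampus were high (8.62 to 9.28, against 6.46 to 7.97 on the others). Gh1, growth hormone of the anterior pituitary, reached 14.16 on a number-titled array and 13.52 on an OVX/ADX array but no more than 6.08 on the 12 arrays of the shared run. In bulk tissue, fewer cells of a type and less RNA per cell cannot be told apart.

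The bases before the start of 5 members are shown as examples of genes whose mating groups did not overlap in one of the intact sets given further on, in class II (RT1-Da, RT1-Bb) and among the interferon-induced effectors (Ifi27, Rsad2, Ifitm3). The sequences are the 250 bases before the start of the gene in RefSeq (build GRCr8, a reference rat and not these Long-Evans rats), 5′ to 3′ on the strand of the gene. Capitals mark 4 short motifs found on either strand. These are the interferon-stimulated response element ISRE (GAAANNGAAA), the gamma-activated site GAS (TTCNNNGAA, the same on both strands), an NF-kB motif (GGGANTTTCC) and the CCAAT box of the class II Y element.
RT1-Da, chr20:4515165-4515414, plus strand: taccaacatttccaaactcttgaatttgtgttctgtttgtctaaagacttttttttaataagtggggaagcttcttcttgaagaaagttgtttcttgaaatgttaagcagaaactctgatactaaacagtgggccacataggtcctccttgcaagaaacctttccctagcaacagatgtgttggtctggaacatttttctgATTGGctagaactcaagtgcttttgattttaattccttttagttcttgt
RT1-Bb, chr20:4604119-4604368, minus strand: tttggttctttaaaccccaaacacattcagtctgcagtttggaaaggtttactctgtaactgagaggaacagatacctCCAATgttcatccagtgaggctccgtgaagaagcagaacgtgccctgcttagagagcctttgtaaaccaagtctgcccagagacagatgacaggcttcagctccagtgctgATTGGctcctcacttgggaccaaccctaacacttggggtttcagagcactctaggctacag
Ifi27, chr6:128355062-128355311, plus strand: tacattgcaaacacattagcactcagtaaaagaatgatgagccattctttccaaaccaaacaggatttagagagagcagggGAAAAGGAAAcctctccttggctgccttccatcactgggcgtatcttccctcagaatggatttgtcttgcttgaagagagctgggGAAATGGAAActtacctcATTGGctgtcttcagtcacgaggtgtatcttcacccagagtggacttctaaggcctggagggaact
Rsad2, chr6:48788121-48788370, minus strand: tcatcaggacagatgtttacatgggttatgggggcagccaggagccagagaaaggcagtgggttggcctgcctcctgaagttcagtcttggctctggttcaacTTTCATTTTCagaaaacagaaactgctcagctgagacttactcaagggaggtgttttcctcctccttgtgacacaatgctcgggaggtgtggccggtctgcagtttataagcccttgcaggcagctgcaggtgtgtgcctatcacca
Ifitm3, chr1:205541759-205542008, minus strand: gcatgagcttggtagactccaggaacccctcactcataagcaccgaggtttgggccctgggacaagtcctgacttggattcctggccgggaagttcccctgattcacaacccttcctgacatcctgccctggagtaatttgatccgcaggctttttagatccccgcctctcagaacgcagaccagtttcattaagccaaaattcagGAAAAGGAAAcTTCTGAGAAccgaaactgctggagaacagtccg
RT1-Da and RT1-Bb held a CCAAT box and no ISRE, Ifi27 held ISRE matches and a CCAAT box, Rsad2 an ISRE, and Ifitm3 an ISRE beside a GAS. Of the 48 member genes, 40 had a window. An ISRE lay in 17 of the 40 (42.5%), against 3.29% of 27457 windows of the same length. A GAS lay in 8 (20%, against 7.52%), an NF-kB motif in 3 (7.5%, against 0.317%) and a CCAAT box in 23 (57.5%, against 34.3%). A match is a description of these letters and not a measured binding site.

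The members spanned the range of signals on the array. B2m was among the brightest, with a median percentile of 99.1 to 99.2 in each set of arrays. Ifi27, an interferon-induced mitochondrial protein, followed at 92.2 to 93.1 and Psme1 at 84.9 to 93.2. Cd74 had a median percentile of 72.9 on the number-titled intact arrays, 52.9 on the Intact-titled set, 62.0 in OVX rats and 69.0 in OVX/ADX rats. Ciita lay at 29.4 to 35.5 and RT1-Bb at 14.4 to 23.9, so the class II genes were present at unlike signals, which between probe sets also depend on the probes.

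On the number-titled intact arrays, the class II genes gave the largest differences of the members, and they were lower on the arrays labelled paced mated. By these labels the direction is opposite to that in the study's own gene table for Cd74 and RT1-Da, which the study chose on its samples, so these genes are not independent evidence of a direction. No member passed an adjusted p of 0.05 in limma. Cd74 signals were 8.30 (2543), 7.36 (2538) and 8.62 (2531) on arrays labelled paced mated, and 9.59 (2526), 9.12 (2536) and 9.06 (2539) on those labelled chamber-exposed. The groups did not overlap, and 2538 was the lowest array. The log2 difference between the groups came to −1.16, with a standard error of 0.30 and an adjusted p of 0.266 in limma.

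RT1-Da, the class II alpha chain of the RT1-D molecule, had the same order of groups. Its signals were 7.53, 6.94 and 7.76 on arrays labelled paced mated and 8.74, 8.29 and 8.39 on those labelled chamber-exposed, a difference of −1.06 (standard error 0.21, adjusted p = 0.144). Its partner RT1-Db1 differed by −0.56 (standard error 0.11, adjusted p = 0.139). RT1-Bb, a beta chain of the RT1-B molecule, differed by −0.50 (standard error 0.14, adjusted p = 0.302). The groups did not overlap for either. The partner alpha chain RT1-Ba depended on the probe set. Probe set 1370822_at differed by −0.37 and was not overlapping between the groups, whereas 1392334_at, the brightest of its 4, differed by −0.002. Ciita differed by 0.03 and the peptide-exchange genes RT1-DMa and RT1-DMb by −0.08 and −0.19.

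Outside class II, Ifitm3, a membrane protein that hinders virus entry, read 9.08, 9.09 and 9.65 on arrays labelled paced mated against 10.14, 9.99 and 9.66. The groups only just did not overlap, and the difference was −0.66 (standard error 0.18, adjusted p = 0.293). Bst2, tetherin, which holds budding virus on the cell, differed by −0.39 (standard error 0.11, adjusted p = 0.317). Differences were smaller for class I loading genes and effectors, with B2m at −0.07, Tap1 at 0.06, Isg15 at −0.03, Mx1 at 0.06, Ifit3 at 0.002, Irf1 at −0.15, Irf7 at 0.09, Irf8 at 0.18, Stat2 at −0.01, Psmb8 at −0.24 and Psmb9 at −0.17.

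Of the 60 probe sets tested, 0 passed the adjusted p in this set, against 12 of all 27032 (0.0444%). An unadjusted p under 0.05 was found for 13 members, 12 of them lower on arrays labelled paced mated, against 9.33% of all probe sets. The plain per-probe-set test called 0 members and 0 of all 27032 probe sets, so it does not set the members apart. Labelled paced mated arrays lay wholly below the others for 12 members (8.16% of all probe sets) and wholly above for 2, Ciita (1379381_at) and Irf8 (7.21% of all). The 12 class II probe sets had a median difference of −0.20, the 6 immunoproteasome probe sets −0.16, the 21 class I and loading probe sets −0.08, the 7 transcription factor probe sets 0.02 and the 14 effector probe sets −0.001, beside 0.01 over all probe sets.

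**Figure D1:**
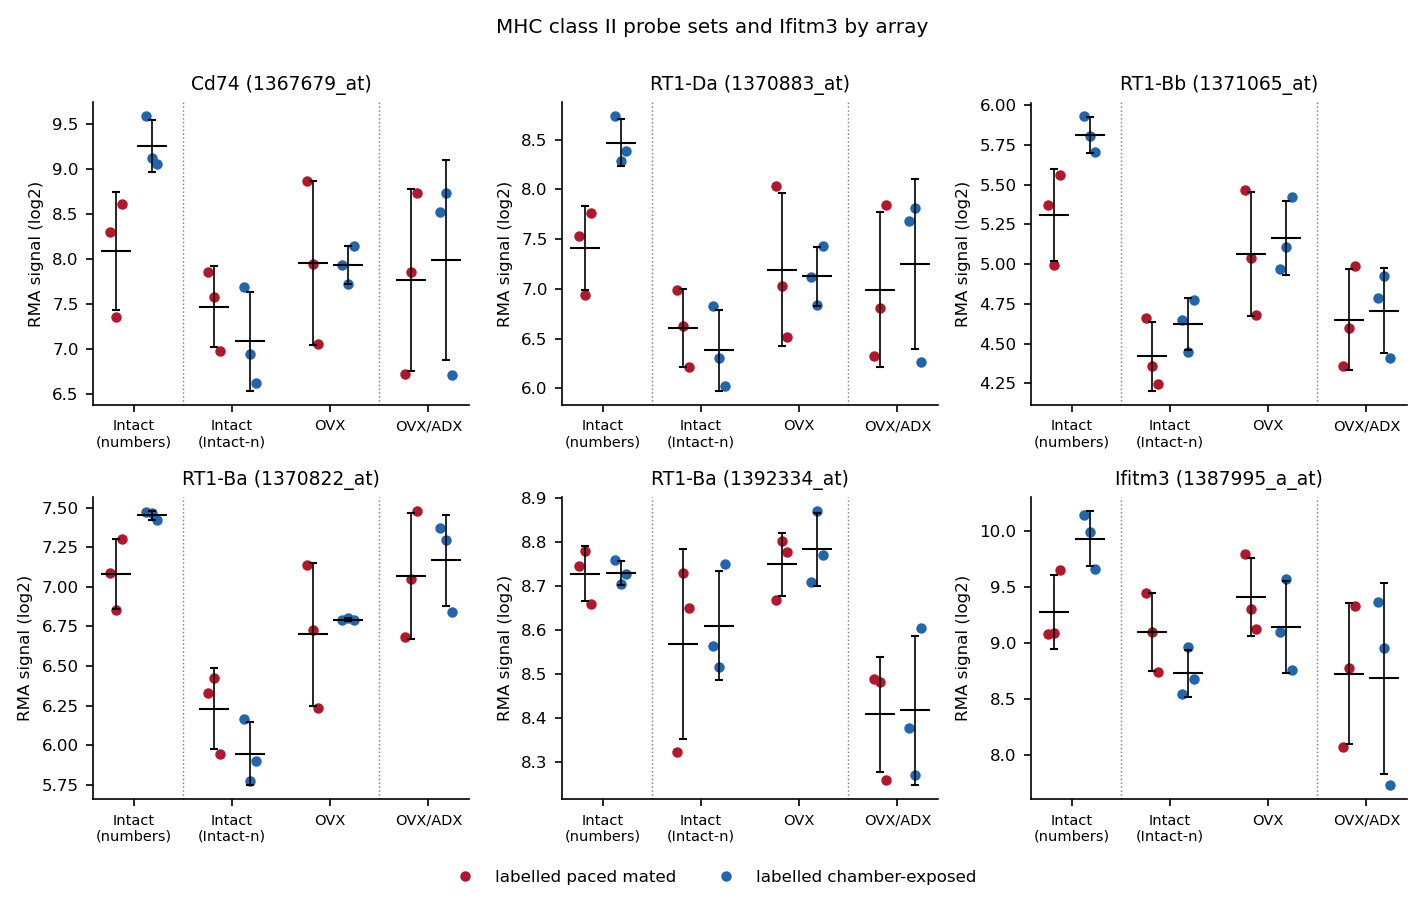
RMA signal (log2, vertical axis) of 4 class II genes (RT1-Ba with a pair of its probe sets) and Ifitm3 on each of the 24 arrays, in red for arrays labelled paced mated and blue for arrays labelled chamber-exposed, with black bars for the mean ± SD (n = 3) and dotted lines between normalization runs. For Cd74, RT1-Da and RT1-Bb the groups lie apart on the number-titled intact arrays and overlap in the other sets, and probe set 1392334_at of RT1-Ba shows no such gap.

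Markers of other tissue moved with the class II genes on these arrays. Of 14 anterior pituitary genes, 14 were lower on arrays labelled paced mated (median difference −1.70), with list means of 7.64 to 9.19 against 9.99 to 10.21. Of 10 meningeal genes, 10 were lower (median −0.83), with list means of 7.55 to 8.87 against 8.74 to 9.32. Of 6 genes of border macrophages, 5 were lower (median −0.21), with list means of 5.96 to 6.48 against 6.28 to 6.66. The 13 microglial genes had list means of 8.09 to 8.32 against 8.20 to 8.29, with a median difference of −0.03. Markers of neurons differed as well. Of 9 midbrain dopamine neuron genes, 9 were lower on arrays labelled paced mated (median −0.39), with list means of 8.89 to 9.61 against 9.47 to 9.99. Of 11 genes of cortex and hippocampus, 10 were higher (median 0.17). Gh1 and other hormone genes of the pituitary list, and Omd, Igf2 and Pcolce of the meningeal list, are also in the study's gene table. The study chose them on its samples as higher after mating. By these labels their direction is opposite here, so they are not independent evidence of a direction. The part of these cells and tissues in the class II differences was not tested.

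Over the 6 number-titled intact arrays, the mean of the 8 class II genes rose with that of the pituitary genes (Pearson r = 0.97, exact permutation p = 0.00278, Benjamini-Hochberg adjusted 0.0444 over 16 relations, Spearman rho = 0.94, exact p = 0.0167). Without the 2 arrays farthest from the median of the pituitary mean, r was 0.91. With the meningeal genes r was 0.93 (exact permutation p = 0.00833, adjusted 0.0667, rho = 0.89 with exact p = 0.0333, and r = 0.88 without the 2 farthest arrays). With the border macrophage genes r was 0.82 (exact permutation p = 0.0417, adjusted 0.167, rho = 0.77 with exact p = 0.103, and r = 0.50 without the 2 farthest). With the microglial genes r was 0.06 (exact permutation p = 0.885, rho = 0.03 with exact p = 1, and r = 0.18 without the 2 farthest). The arrays of the 2 mating labels differ in both measures here, so these relations follow the labels in part. The permutations exchanged all 6 arrays without regard to the labels, so their p-values do not set that part aside. The 16 relations were chosen after the values were seen, and the adjustment does not cover the other marker lists. The class II, pituitary and meningeal means also hold genes that the study chose on its samples. An adjusted value under 0.05 is therefore a description here.

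On the OVX/ADX arrays the correlation of class II with the meningeal genes was 0.93 (exact permutation p = 0.0181, adjusted 0.0963, rho = 0.83 with exact p = 0.0583), which missed the threshold after adjustment, and 0.54 without the 2 farthest arrays. It was 0.77 on the OVX arrays (exact permutation p = 0.0667, adjusted 0.213, rho = 0.54 with exact p = 0.297), and −0.39 without the 2 farthest, so there it rests on those arrays. On the Intact-titled arrays it was 0.32 (exact permutation p = 0.551, adjusted 0.725, rho = 0.54 with exact p = 0.297, and r = 0.79 without the 2 farthest). For the pituitary genes r was −0.48, −0.57 and 0.54 in the Intact-titled, OVX and OVX/ADX sets (exact permutation p = 0.374, 0.25 and 0.263). Without the 2 farthest arrays of each set it was −0.916, −0.125 and 0.119.

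**Figure D2:**
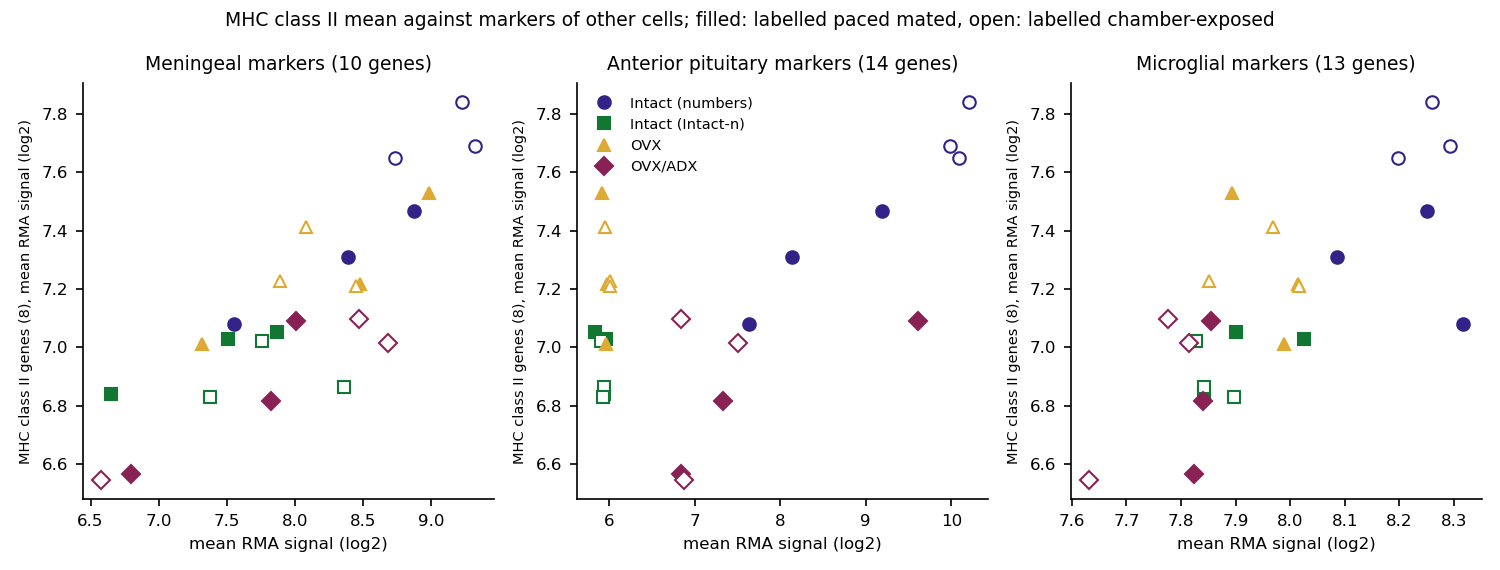
Mean RMA signal (log2) of the 8 class II genes (vertical axis) against that of meningeal, anterior pituitary and microglial marker genes (horizontal axes) on each array, with a symbol for each set of arrays, filled where labelled paced mated and open where labelled chamber-exposed. On the number-titled intact arrays class II follows both pituitary (r = 0.97) and meningeal (r = 0.93) markers, while on the 12 arrays of the shared run the pituitary mean lies between 5.84 and 6.02.

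On the Intact-titled arrays, most members were higher on the arrays labelled paced mated, led by interferon-induced effectors, by immunoproteasome subunits and by the class I gene RT1-S3. No member passed the adjusted p. Mx2, an interferon-induced dynamin-like GTPase, had 8.22, 8.17 and 8.20 on Intact-1, Intact-3 and Intact-5, labelled paced mated, and 6.51, 7.39 and 6.73 on Intact-2, Intact-4 and Intact-6. The arrays labelled paced mated lay close together and above all the rest, a difference of 1.32 (standard error 0.27, adjusted p = 0.145). A second, dimmer probe set of the gene, 1387283_at, differed by 0.16 with overlapping groups.

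Psmb8 and Psmb9, the catalytic subunits that replace those of the standard proteasome, differed alike. Psmb8 had 7.20, 7.48 and 6.76 on arrays labelled paced mated against 6.54, 6.64 and 6.49, a difference of 0.59 (standard error 0.15, adjusted p = 0.223). Psmb9 had 7.05, 7.04 and 6.67 against 6.55, 6.39 and 6.26, a difference of 0.52 (standard error 0.16, adjusted p = 0.271). In both, Intact-5 was the lowest of its group, close to the highest array labelled chamber-exposed.

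Ifi27 had 10.98, 10.80 and 10.88 against 10.35, 10.62 and 10.48 (0.40, standard error 0.10, adjusted p = 0.218). Rsad2, viperin, an enzyme that stops viral RNA synthesis, had 7.24, 7.17 and 6.99 against 6.64, 6.92 and 6.74 (0.37, standard error 0.10, adjusted p = 0.227). Neither overlapped between the groups. The 4 probe sets of RT1-S3, a class Ib gene, differed by 0.41 to 0.61. The groups overlapped for 1388212_a_at, the brightest, and for 1388213_a_at. The latter had 7.31, 7.25 and 7.14 against 6.37, 6.45 and 7.28. Intact-2 and Intact-4 were the lowest arrays of the set for all 4 probe sets. RT1-N2 and RT1-T24-3, given further on, were high on Intact-2 and Intact-4.

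Mx1, a nuclear relative of Mx2, went the other way, with 5.18, 5.56 and 4.82 on arrays labelled paced mated against 6.17, 6.37 and 5.26, a difference of −0.74 with overlapping groups. The remaining differences were 0.48 for Isg15, the ubiquitin-like modifier, 0.38 for Ifit3, 0.37 for Ifitm3, 0.18 for Bst2, 0.25 for Irf1, 0.30 for Irf7, −0.01 for Irf8, 0.17 for Stat2, 0.14 for B2m and 0.20 for Tap1. In class II, Cd74 differed by 0.38, RT1-Da by 0.23 and Ciita by 0.16, and RT1-Bb by −0.20. Single arrays moved the first 2, as Cd74 lay between 0.15 (without Intact-6) and 0.69 (without Intact-2) and RT1-Da between 0.04 (without Intact-1) and 0.45 (without Intact-2).

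In this set 0 of 60 members passed the adjusted p, against 7 of 27032 probe sets (0.0259%). The plain test called 0 members, against 5 of all probe sets. An unadjusted p under 0.05 was found for 19 members, 18 of them higher on arrays labelled paced mated, against 10.7% of all probe sets. Those arrays lay wholly above the others for 12 members (7.55% of all probe sets) and wholly below for 0 (6.36% of all). Median differences were 0.35 for the effectors, 0.25 for the immunoproteasome, 0.19 for the transcription factors, 0.13 for class I and loading and 0.10 for class II, beside 0.01 over all probe sets. With array weights the count of members called was 14, against 11.5% of all probe sets. It was 1 without Intact-5 (Psmb8, 0.314% of all) and 1 without Intact-6 (RT1-S3, 0.174% of all). Of 10 meningeal genes, 9 were lower on arrays labelled paced mated (median −0.48), with list means of 6.65 to 7.87 against 7.38 to 8.36, and of 6 border macrophage genes 6 were lower (median −0.15). Of 13 microglial genes, 7 were higher (median 0.15), 5 of them with an unadjusted p under 0.05, with list means of 7.84 to 8.02 against 7.83 to 7.90. Of 8 lymphocyte genes, 5 were higher (median 0.11). The part of these cells in the differences was not tested.

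**Figure D3:**
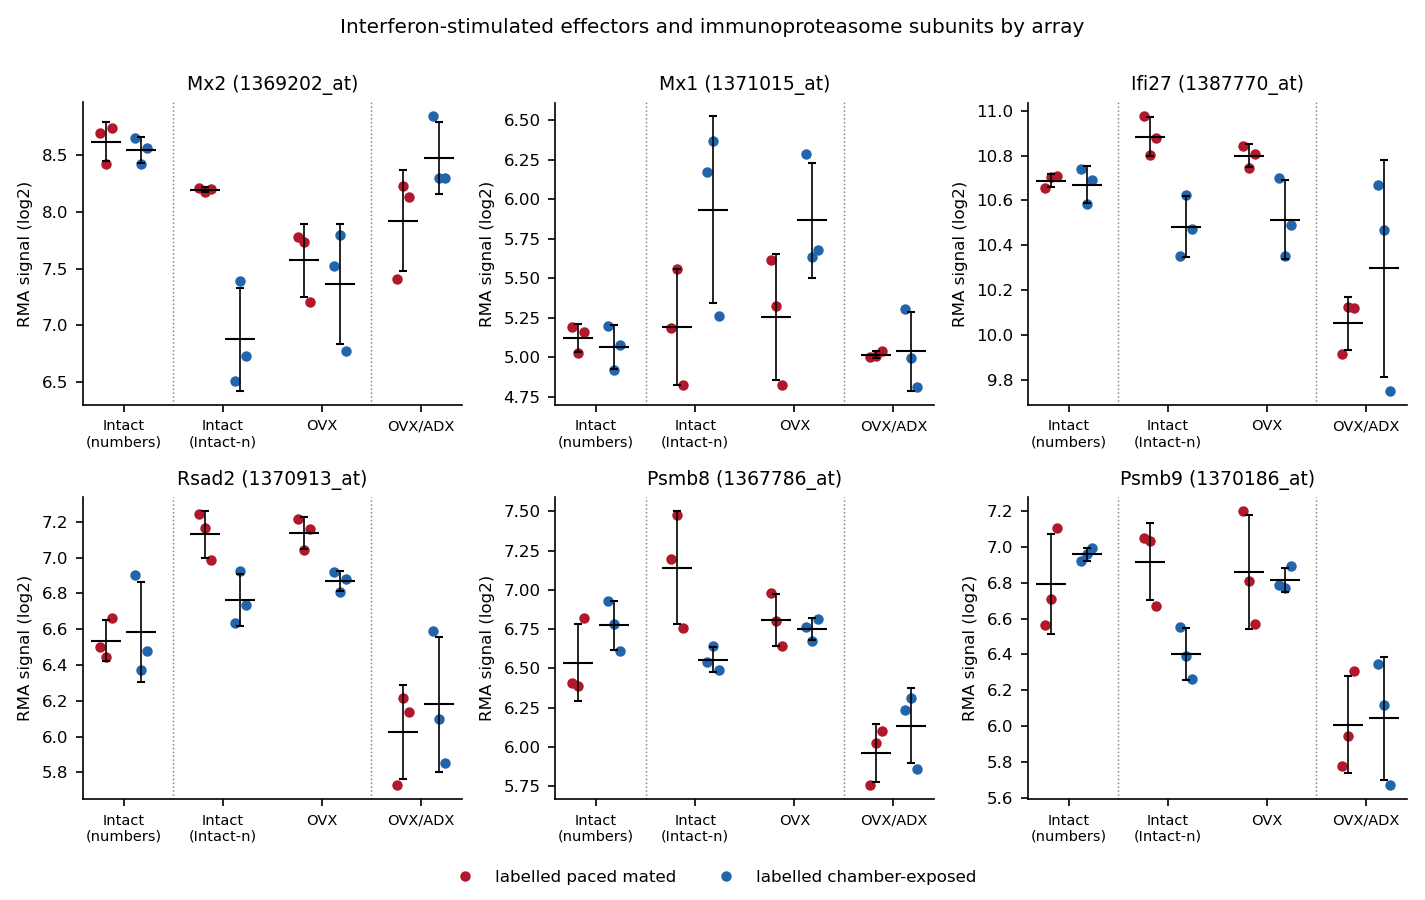
RMA signal (log2, vertical axis) of interferon-induced effectors and immunoproteasome subunits on each array, with colours, bars (mean ± SD, n = 3) and dotted lines between runs. On the Intact-titled arrays Mx2, Ifi27, Rsad2, Psmb8 and Psmb9 are wholly higher where labelled paced mated, and Mx1 is lower in the mean.

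The 2 sets of intact arrays differed in which members stood out by the same labels. Of the 60 members, 43 were below 0 on the number-titled arrays (44.1% of all probe sets) and 11 on the Intact-titled arrays (46.2% of all). Signs were opposite for 36 members that were below 0 in the first set and above it in the second and for 4 the other way, and alike for the rest, 13 above 0 and 7 below 0 in both. The effectors, with the highest median on the Intact-titled arrays, had 7 probe sets on either side of 0 on the number-titled arrays. The test of the difference between the sets called 0 members (22 of 27032 probe sets, 0.0814%) and the plain test also 0 (4 of all). It gave 23 members an unadjusted p under 0.05 (10.6% of all). The largest of these were Cd74 (−1.55), RT1-Da (−1.29, adjusted p = 0.221), Mx2 (−1.25, adjusted p = 0.103) and Ifitm3 (−1.02, adjusted p = 0.217), as number-titled minus Intact-titled. Array weights called 17 members (8.56% of all). Leaving out Intact-4, Intact-5 or Intact-6 gave 1 (0.0407% of all), 1 (1.28%) and 4 (1.22%). The sets differ also in the run and in the regional markers given above, which cannot be told apart from the set.

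With both intact sets fitted together, 0 members passed the adjusted p (0 of all 27032, 0%) and 0 by the plain test (0 of all). An unadjusted p under 0.05 was found for 5 members (7.72% of all probe sets). Mx2 differed by 0.70 (standard error 0.22, adjusted p = 0.614) and RT1-Bb by −0.35 (standard error 0.11, adjusted p = 0.614). An exact two-sided permutation of the labels within the sets, which can give no p below 0.005, gave 0.03 for Mx2, 0.02 for RT1-Bb, 0.04 for Ifi27 and 0.005 for 1 probe set of Ciita (1379381_at), with adjusted values of 0.3 or more over the 60 members. RT1-Bb was lower in the mean on arrays labelled paced mated in all 4 sets, by −0.50, −0.20, −0.10 and −0.06. Over the 24 arrays, 0 members passed (0 of all, 0%) and the plain test called 0 (0 of all). There, 2 members, Mx1 (−0.33) and RT1-Bb (−0.22), had an unadjusted p under 0.05 (4.2% of all).

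Among OVX rats, the differences were smaller, and a few effectors were again higher on arrays labelled paced mated. Rsad2 had 7.21, 7.04 and 7.16 on OVX-1, OVX-3 and OVX-5 against 6.92, 6.81 and 6.88 (0.27, standard error 0.10, adjusted p = 1). Ifi27 had 10.84, 10.74 and 10.81 against 10.70, 10.35 and 10.49 (0.28, standard error 0.10, adjusted p = 1). The groups did not overlap for these, nor for Irf7, a factor that amplifies the interferon response, which differed by 0.23.

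Mx1 was lower on each OVX array labelled paced mated, with 5.62, 5.32 and 4.82 against 6.28, 5.63 and 5.68 (−0.61, standard error 0.31, adjusted p = 1). Gbp2, an interferon-induced guanylate-binding protein, differed by 0.34 and Usp18, which removes Isg15 from proteins, by 0.31. Mx2 differed by 0.21, Ifitm3 by 0.27, Isg15 by 0.15, Ifit3 by 0.17, Bst2 by −0.11, Psmb8 by 0.06, Psmb9 by 0.04, B2m by 0.13, Tap1 by −0.06, Irf1 by −0.08, Irf8 by −0.05, Stat2 by 0.16 and Ciita by −0.04. Tapbp differed by −0.15.

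Class II varied widely among OVX arrays without following the mating labels. Cd74 had 8.87, 7.95 and 7.06 on arrays labelled paced mated and 7.94, 7.72 and 8.14 on the others (0.02), so the highest and the lowest array carried the same label. RT1-Da had 8.03, 7.03 and 6.52 against 7.12, 6.83 and 7.43 (0.07). OVX-1 and OVX-5, the arrays at these ends, also had the highest and lowest meningeal means, 8.98 and 7.32. Choroid plexus markers did follow the labels. Of 9 such genes, 9 were lower on arrays labelled paced mated (median −1.33), 4 of them with an unadjusted p under 0.05 in limma (1.68% of all probe sets). Their list means were 6.41 to 7.96 against 8.42 to 8.90. The part of these tissues in the differences of the OVX arrays was not tested.

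Here 0 of 60 members passed the adjusted p (0 of 27032 probe sets, 0%) and the plain test called 0 (0 of all). An unadjusted p under 0.05 was found for 3 members (1.68% of all). Labelled paced mated arrays lay wholly above the others for 3 members (2.79% of all) and wholly below for 2, Mx1 and Psmb10 (3.5% of all). The median difference was 0.17 for the effectors and −0.02 for class II. The mating difference of the Intact-titled minus that of the OVX arrays called 0 members (2 of 27032, 0.0074%) and the plain test 0 (1 of all). In it 3 members, Irf1 (0.33, adjusted p = 0.875), Mx2 (1.11, adjusted p = 0.878) and Psmb8 (0.53, adjusted p = 0.99), had an unadjusted p under 0.05 (4.95% of all).

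**Figure D4:**
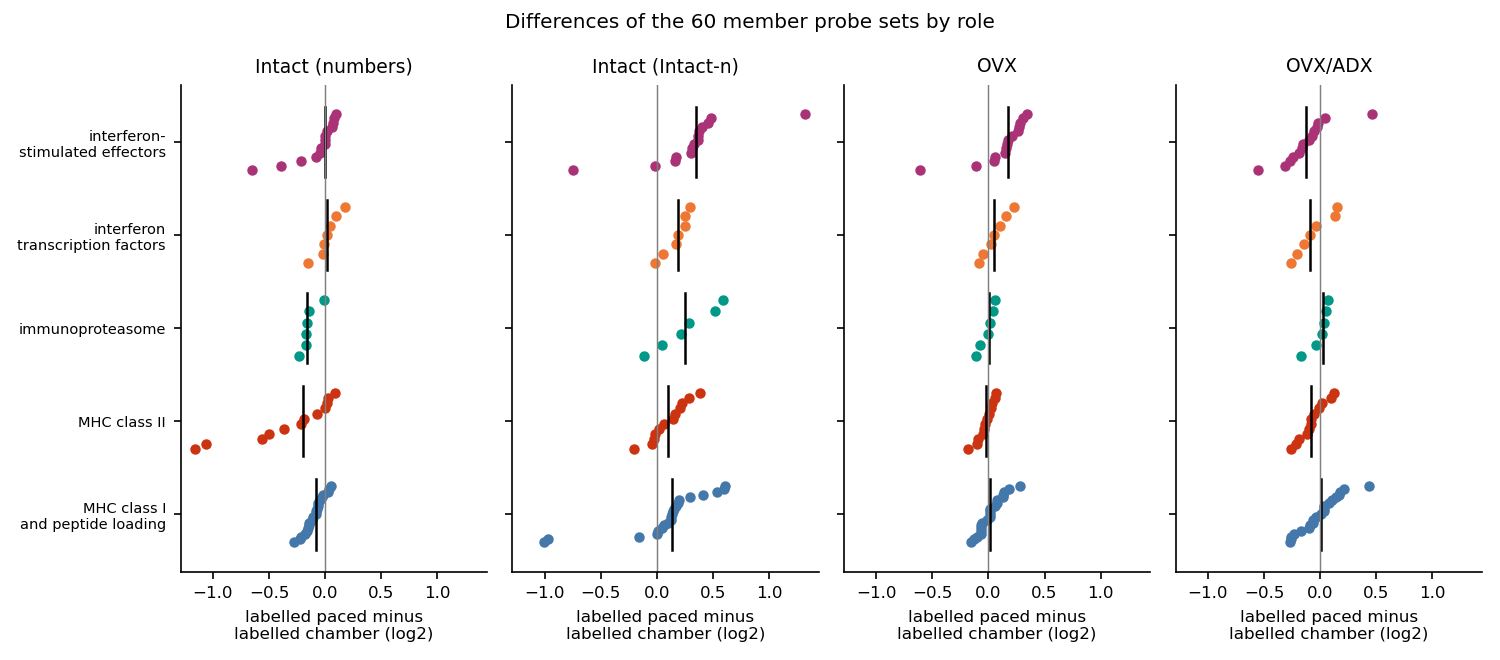
Signal on arrays labelled paced mated less that on chamber-exposed arrays (log2, horizontal axis) for each of the 60 member probe sets by role, in the 4 sets of arrays, with a point for each probe set and a black line at the median of the role. Class II lies lowest on the number-titled intact arrays and the effectors highest on the Intact-titled, while no role's median is as far from 0 among the operated rats.

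Among OVX/ADX rats, 12 of 14 effector probe sets (median difference −0.125) and 9 of 12 class II probe sets (median −0.08) were below 0, against 50.9% of all probe sets, and no member passed the test. Cd74 had 6.72 (4123), 7.86 (4125) and 8.73 (2541) on arrays labelled paced mated and 8.52 (4124), 8.73 (4126) and 6.71 (2530) on those labelled chamber-exposed, a difference of −0.22 with a standard error of 0.65. RT1-Da had 6.32, 6.80 and 7.84 against 7.68, 7.81 and 6.27 (−0.26). Arrays 4123 and 2530 were the lowest for both genes, and they also had the lowest meningeal means (6.80 and 6.58, against 7.83 to 8.68 on the others). Array 2541 had a pituitary mean of 9.62, against 6.84 to 7.50 on the other arrays of the set. Of the 10 meningeal genes, 9 were lower on arrays labelled paced mated (median −0.40), and their part in the differences was not tested.

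The class II values of this set turn on 2541 and 2530. Without both, the arrays labelled paced mated lay below the others for Cd74 and RT1-Da, and the differences were −1.34 (adjusted p = 0.582 in limma) and −1.18 (adjusted p = 0.354). The median was −0.23 for class II and −0.33 for the effectors, with 13 of 14 effector probe sets below 0. An unadjusted p under 0.05 was then found for 27 members, 24 of them lower on arrays labelled paced mated, against 8.17% of all probe sets, and 0 members (0% of all) passed the adjusted p. This comparison has 2 arrays on either side and was chosen after the values were seen.

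Mx2 had 7.41, 8.23 and 8.14 on arrays labelled paced mated and 8.85, 8.30 and 8.30 on the others, a difference of −0.56 (standard error 0.24, adjusted p = 1.00) with no overlap, while its second probe set differed by 0.47. RT1-A3, a class I gene, differed by 0.17 (standard error 0.07, adjusted p = 1.00), RT1-T24-3 by 0.44 and Oas1a, a sensor of double-stranded RNA, by −0.19. Gbp2 differed by −0.31, Isg15 by −0.27, Irf7 by −0.26, Ifitm3 by 0.04, Bst2 by −0.10, Ifit3 by −0.03, Mx1 by −0.02, Psmb8 by −0.17, Psmb9 by −0.04, B2m by −0.06, Tap1 by −0.06, Irf1 by 0.15, Irf8 by −0.14, Stat2 by −0.04 and Ciita by −0.08.

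The count of members past the adjusted p was 0 (0 of 27032, 0%), and 0 by the plain test (0 of all). There was 1 member with an unadjusted p under 0.05, RT1-A3 (2.47% of all probe sets). Labelled paced mated arrays lay wholly above the others for 0 members (2.69% of all) and wholly below for 2, Mx2 (1369202_at) and Ciita (1379381_at) (4.1% of all). With 3 arrays against 3, an exact permutation test cannot give a p under 0.1 in any set.

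Intact and OVX rats could be compared within the shared run, over 12 arrays and with mating in the model. Class II was the role with the largest shift, lower on the intact arrays. RT1-Ba (1370822_at) had 6.33, 6.16, 6.42, 5.78, 5.94 and 5.90 on Intact-1 to Intact-6 and 7.14, 6.79, 6.73, 6.80, 6.24 and 6.79 on OVX-1 to OVX-6. OVX-5 was the 1 OVX array within the intact range, and the difference of −0.66 (standard error 0.14, adjusted p = 0.0542) missed the threshold. RT1-Bb had 4.66, 4.65, 4.36, 4.45, 4.24 and 4.77 against 5.46, 4.97, 5.04, 5.11, 4.68 and 5.42, again with OVX-5 within the intact range (−0.59, standard error 0.14, adjusted p = 0.0639).

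Cd74 differed by −0.67 and RT1-Da by −0.66, with standard errors of 0.29 and 0.25 and overlapping groups. The other class II probe sets ranged from −0.42 (1377334_at of RT1-Ba, adjusted p = 0.0998) to 0.09 (RT1-DMb), with Ciita (1369214_a_at) at −0.20 and 10 of 12 below 0. Their median was −0.27, beside 0.001 over all probe sets tested. Of 10 meningeal genes, 9 were lower on the intact arrays (median −0.64), of 9 choroid plexus genes 8 (median −0.56, 1 past the adjusted p), of 6 border macrophage genes 5 (median −0.26) and of 8 lymphocyte genes 7 (median −0.11). Microglial genes had a median of −0.04, with 9 of 13 below 0. Of 11 genes of cortex and hippocampus, 10 were higher on the intact arrays (median 0.20, 1 past the adjusted p). Of all probe sets, 0.988% passed the adjusted p in this comparison. The part of these tissues and cells was not tested. Ovariectomy, surgery and estradiol priming cannot be told apart in this comparison. The full array titles also begin with a different number series for the Intact-titled and for the OVX arrays. The labels do not say what these series stand for, and they cannot be told apart from the gland group.

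Outside class II, RT1-CE10, a class I gene, was 4.92 to 5.36 on the intact arrays and 5.39 to 5.75 on the OVX arrays (−0.35, standard error 0.09, adjusted p = 0.0841). Its probe set ends in _x_at, which marks probes that can bind other transcripts. Psmb10, the subunit of the immunoproteasome with trypsin-like activity, was 8.38 to 8.72 against 8.23 to 8.38 (0.26, standard error 0.07, adjusted p = 0.0893). Ifit2, which binds viral RNA, differed by −0.40 (1379568_at, standard error 0.11, adjusted p = 0.0893) and Usp18 by −0.36 (standard error 0.11, adjusted p = 0.114). RT1-CE12 differed by −0.25. The transcription factors had a median of 0.06, with Stat2 at 0.34.

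Of the 60 members, 0 passed the adjusted p, against 267 of 27032 probe sets (0.988%), and the plain test called 0 (2 of all). An unadjusted p under 0.05 was found for 20, 17 of them lower on the intact arrays, against 20.4% of all probe sets. Intact arrays lay wholly above OVX for 1, Psmb10 (1.84% of all), and wholly below for 2, RT1-CE10 and Ifit2 (0.803% of all). For Psmb10 the groups only just did not overlap, with 8.377 on Intact-5 and 8.375 on OVX-6. The calls turn on small choices. Leaving out 1 array took the calls over all probe sets from 267 to as few as 1 (without OVX-1 or without OVX-4). They were 4 without Intact-3 and at most 815 (without Intact-5). The adjusted p of RT1-Ba (1370822_at) was 0.0463 with a filter at the 50th percentile (2.04% of all probe sets called) and 0.0481 after subtraction of array medians (1.06%). Without OVX-5 it was 0.0442, with RT1-Bb at 0.0477 (0.474% of all called), and without Intact-5 Psmb10 had an adjusted p of 0.0371 (3.01% of all called).

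**Figure D5:**
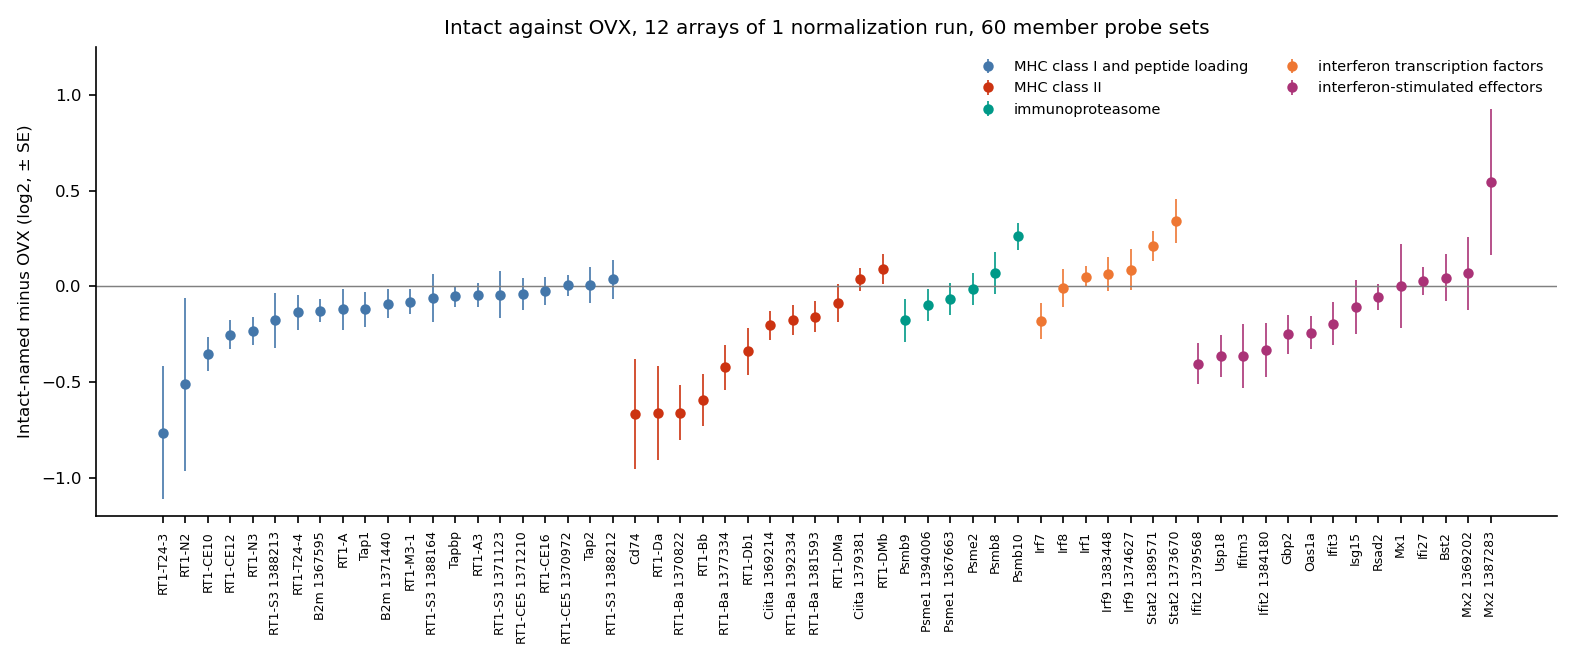
Difference of the Intact-titled minus the OVX arrays (log2, vertical axis, points with ± standard error from limma) for each of the 60 member probe sets, coloured and ordered by role. The class II probe sets of Cd74, RT1-Da, RT1-Ba (1370822_at) and RT1-Bb lie between −0.67 and −0.59, and Psmb10 and Stat2 lie above 0.

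RT1-N2 and RT1-T24-3, nonclassical class I genes, split the arrays of the shared run into high and low ones. RT1-N2 had 4.11, 5.22, 4.51, 6.13, 3.53 and 3.71 on Intact-1 to Intact-6 and 5.62, 5.52, 5.45, 5.71, 4.09 and 3.89 on OVX-1 to OVX-6. RT1-T24-3 had 5.96, 7.30, 6.19, 7.65, 5.96 and 6.18, and 7.92, 7.75, 7.83, 7.64, 6.59 and 6.10. Both were high on Intact-2, Intact-4 and OVX-1 to OVX-4 and low on the other 6 arrays, so neither the mating label nor the surgery separates the levels. They gave the lowest differences of the class I probe sets on the Intact-titled arrays (−0.97 and −1.01) and against OVX (−0.51 and −0.76).

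Related genes beyond the members were taken from 3 lists of the same pathways. Of 15 genes of interferon ligands, receptors and signalling, 0 passed the adjusted p in any of the mating comparisons or between intact and OVX arrays, and Ifnar2, a chain of the type I interferon receptor, gave 0.39 on the number-titled arrays (adjusted p = 0.461). Of 29 other interferon-stimulated genes, 22 were below 0 on the number-titled arrays, against 44.1% of all probe sets. Ifi44l was at −0.83, Ifitm1 at −0.86 and Plscr1 at −0.82 (adjusted p = 0.147, 0.167 and 0.172 in limma). Ifi44l and Plscr1 were among the genes the study chose on its samples, and by these labels their direction is again opposite to that in its gene table, so they are not independent evidence of a direction. On the Intact-titled arrays 22 of the 29 were above 0, where 46.2% of all probe sets were below 0. Ube2l6, which attaches Isg15, was at 0.41 (adjusted p = 0.211 in limma). Between intact and OVX arrays 1 of the 29 passed, Cxcl11, a chemokine for T cells. It was lower on the intact arrays (−0.53, standard error 0.09, adjusted p = 0.0398). Of all 27032 probe sets, 267 passed there (0.988%). That count fell to 1 without OVX-1 and to 1 without OVX-4.

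Of 22 other antigen processing genes, 0 passed in these comparisons. On the number-titled arrays 20 were below 0, against 44.1% of all probe sets. Sec61b, part of the channel into the endoplasmic reticulum, was at −0.79 (adjusted p = 0.0545 in limma). Pdia3, a chaperone of class I loading, was at −0.40 (adjusted p = 0.0843). Between intact and OVX arrays Rfx5, a factor that binds class II promoters, was at −0.37 (adjusted p = 0.0957) and Nfya, which binds the CCAAT box, at 0.29 (adjusted p = 0.0861).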

How the data were processed

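The authors deposited log2 signals per probe set, made with RMA in Affymetrix Expression Console 1.4 per the submitters' processing notes, and these were used as deposited. The study's methods name GCRMA instead, and values made that way were not analysed here. RMA fits all arrays of a run together. The lowest signals per array (2.30 to 2.39, 3.38 to 3.43 and 3.58 to 3.65) fall into 3 groups, which were taken as 3 runs. Differences were tested within these. Like lowest signals cannot show that the Intact-titled and OVX arrays were 1 run. Sequencing depth does not apply, and precision is set by how many arrays there are.

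Genes were named from the platform annotation. Gene identifiers matched RefSeq (GRCr8) for 47 of 48 members, with no change of symbol. A probe set was kept where its signal reached the 20th percentile on at least 3 of the 24 arrays. Where 1 value stands for a gene, it is that of its brightest probe set. Differences were tested with limma 3.58.1 in R 4.3.3 (lmFit, eBayes), and p-values were adjusted over 27032 probe sets (Benjamini-Hochberg, threshold 0.05). The procedure was tested on simulated data. The Intact-titled and OVX arrays were fitted together. Exact permutation tests and correlations were run in Python 3.11.15 with scipy 1.17.1. The relations with cell markers were chosen after the values were seen. Alternatives covered the filter, the normalization, eBayes options, array weights, a plain test, 1 probe set per gene and leaving out each array.

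The members and lists were chosen with earlier results of these data known. The text names the 5 members with the smallest p in each comparison, the 16 genes from Cd74 to Ifitm3 listed for each mating comparison, and up to 3 genes of each related list. Others, among them RT1-N2, RT1-T24-3 and second probe sets, were named after their values were seen.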

Additional observations from a re-analysis of the deposited data

How the results depend on the processing

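Members called past the adjusted p were 0 under each alternative for the number-titled intact, the OVX and the OVX/ADX arrays, for both intact sets together, for the 24 arrays and for the Intact-titled against the OVX mating difference. Array weights gave 14 calls on the Intact-titled arrays, 14 between intact and OVX arrays and 17 for the difference between the intact sets. With these weights the calls over all 27032 probe sets went from 7 to 3112, from 267 to 4897 and from 22 to 2314 (11.5%, 18.1% and 8.56%). For intact against OVX arrays, the 50th percentile filter and the subtraction of array medians gave 1 each. Leaving out 1 array at a time gave 0 to 1 on the Intact-titled arrays, 0 to 2 between intact and OVX arrays and 0 to 4 for the difference between the intact sets. The cause was not tested.

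Intact-titled and OVX arrays share numbers in their titles. The same-numbered arrays deviated together with correlations of 0.02 to 0.31, and 3 of 6 fitted their own number best. So few arrays cannot settle whether the numbers pair them, and the arrays were treated as unpaired in the main fit. With the replicate block 4 members were called between intact and OVX arrays, RT1-Bb (adjusted p = 0.0273), RT1-Ba (1370822_at, 0.0408, and 1377334_at, 0.0478) and Stat2 (0.0435), and the block moved the calls over all probe sets from 267 to 375.

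Cd74 and RT1-Da turned sign where they were near 0. Among OVX arrays Cd74 gave −0.053 with array weights. Leaving out 1 array gave −0.43 (without OVX-1) to 0.475 (without OVX-5) for Cd74 and −0.35 to 0.403 for RT1-Da, and −0.08 for both without OVX-4. Among OVX/ADX arrays Cd74 gave −0.857 without 2530, 0.31 without 4123, 0.05 without 4124 and 0.15 without 4126, and RT1-Da −0.753 without 2530, 0.072 without 4123 and 0.02 without 4126. In the Intact-titled minus OVX mating difference, RT1-Da gave −0.03 without Intact-1, −0.02 without Intact-6, −0.18 without OVX-5 and 0.577 without OVX-1, and Cd74 −0.091 without OVX-5 and 0.815 without OVX-1. Leaving out both 2541 and 2530, an alternative chosen after seeing the data, called 0 members among OVX/ADX arrays, moved Cd74 to −1.34 and RT1-Da to −1.18, and raised the probe sets with an unadjusted p under 0.05 from 667 to 2208. The median difference of the members kept its sign in both intact sets when 1 array was left out, but its size changed. Leaving out 1 array took it from −0.129 (without 2531) to −0.032 (without 2543) on the number-titled arrays, where it was −0.072, and from 0.141 to 0.242 on the Intact-titled arrays, where it was 0.175. Groups of 3 arrays limit what can be detected, and dim probe sets such as RT1-Bb lie near background.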
